A study of Mus musculus with 4 samples.

Results

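The HIF pathway and its hypoxia target genes are described here through 10 genes: Hif1a and Epas1, which encode the oxygen-labile alpha subunits of the hypoxia-inducible factors, Egln1 and Egln3, which encode prolyl hydroxylases that mark those subunits for destruction, and the target genes Adm, Bnip3, Bnip3l, Ndrg1, Pdk1 and P4ha1. A probe belonged to the set when it was not a control and its gene name, or the current symbol of its RefSeq accession, was among these 10. This gave 15 probes of the 41174 on the array, and 10 of 27666 gene names. Epas1, Egln1, Bnip3l, Pdk1 and P4ha1 had 2 probes each, and the other 5 genes had 1 each.

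The RNA came from B16-F10 cells, a mouse melanoma line grown in high-glucose medium with serum, and was hybridised to 4 Agilent 2-colour arrays. The Cy5 sample on every array was from cells given a goat polyclonal agonist antibody against mouse TIM3, an immune checkpoint receptor encoded by Havcr2, and the Cy3 sample was from a culture at the same passage given unspecific goat IgG. Both were given at 15 ug/ml for 2 h in vitro, and replicates 1 to 4 were passages 14, 16, 18 and 19. For replicate 3 the labels name the anti-TIM3 antibody but do not repeat its dose and time. All groups were the same line with no genetic change named, 0 arrays had the dyes exchanged, and all 4 arrays lay on 1 slide, so the dyes and the antibodies cannot be told apart. The p-values rest on the spread between the 4 arrays of this 1 line, in which the passage and the processing of each array cannot be told apart.

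In cells with ample oxygen, the EGLN enzymes hydroxylate the alpha subunits, the von Hippel-Lindau ubiquitin ligase binds the hydroxylated protein, and the proteasome degrades it. When oxygen falls, the alpha subunit accumulates, pairs with ARNT and binds short hypoxia response elements near its targets, which include glycolytic enzymes, regulators of mitochondria and, as a feedback, Egln1 and Egln3 themselves. Much of this control acts on the protein, which these arrays did not measure. The medium's oxygen is not given in the labels.

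Between 25701 and 28400 probes per array were well above background in the anti-TIM3 channel and between 21150 and 22084 in the IgG channel. The tested Havcr2 probe, 1 of 2 on the array, had a log2 ratio of anti-TIM3 over IgG of 0.04 ± 0.04 (SD, n = 4; limma, adjusted p = 0.40). This mRNA ratio cannot show whether the antibody acted on the receptor. All 7 melanocyte markers (Tyr, Tyrp1, Dct, Pmel, Mlana, Mitf and Sox10) were detected above background on 4 of 4 arrays in Cy5 and Cy3. Ptprc, Itgam and Adgre1 of leukocytes, Pecam1 of endothelium, Dcn of fibroblasts, and Epcam and Krt18 of epithelium were above background on 0 arrays. Cd3e, Col1a1 and Col1a2 were above background on all 4 in both channels.

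Log2 ratios are anti-TIM3 over IgG, so a positive value is a higher level after anti-TIM3. All 15 probes entered the fit, which covered the 26543 probes that at least 3 of the 4 arrays detected above background in Cy5 or Cy3, with Benjamini-Hochberg adjustment over all of them and a threshold of 0.05. Where a gene had 2 probes, the brighter one represented it. By this measure 6 of the 10 genes rose (Adm, Bnip3, Bnip3l, P4ha1, Egln1 and Pdk1), Hif1a fell, and Epas1, Egln3 and Ndrg1 did not pass. Across all 17788 genes with a tested probe, 14.8% rose and 12.8% fell, or 27.6% in all. The median log2 ratio was 0.15 over the 10 genes and 0.01 over all of these genes. The sizes were small: the furthest member probe, that of Bnip3, was 1.33-fold higher, and the median absolute log2 ratio of all called probes was 0.17.

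**Figure D1:**
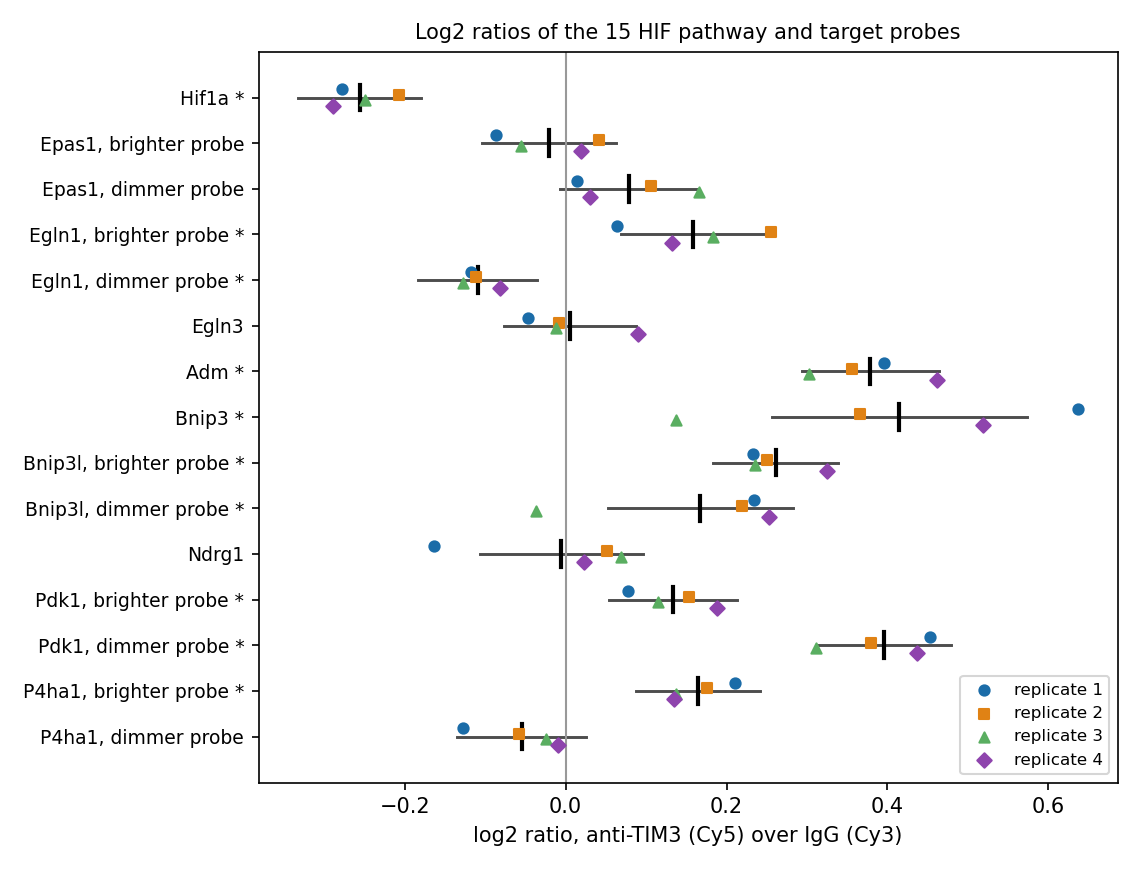
Log2 ratio of anti-TIM3 over IgG (horizontal axis) for each of the 15 probes (rows), with 1 point for each of the 4 replicates, a black bar at the mean and a grey line for the 95% confidence interval of limma's fit. An asterisk marks an adjusted p under 0.05. The Hif1a points lie between -0.29 and -0.21 and the Adm points between 0.30 and 0.46, while the 2 probes of Egln1 lie on opposite sides of 0.

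Hif1a, the gene of the broadly expressed alpha subunit, was the member gene that fell. Its normalised log2 intensity on replicates 1 to 4 was 13.45, 12.75, 12.65 and 12.54 in the anti-TIM3 channel, and 13.72, 12.96, 12.90 and 12.83 in the IgG channel. The anti-TIM3 channel was the lower on each array, although the ranges of the channels overlapped because replicate 1 was brighter than the others in both. The log2 ratios were -0.28, -0.21, -0.25 and -0.29, with a mean of -0.26 ± 0.04 (SD, n = 4; limma, adjusted p = 0.00165), or a 0.837-fold level. Fewer cells with the transcript and less of it per cell cannot be told apart in such bulk RNA. The same held in the linear processed intensities that the authors deposited, 8275, 5955, 5900 and 5791 after anti-TIM3, and 9808, 6836, 7049 and 7045 after IgG. From these the log2 ratio of Hif1a was -0.25 ± 0.03 (adjusted p = 0.0190). Hif1a lay in the same direction with any replicate left out (-0.27 to -0.25), but with median centring alone and no loess, where the median of all tested probes was 0.15, it stood at 0.14.

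The 60-base Hif1a probe is listed on chromosome 12 from 71899015 to 71899075 on the plus strand in the files' build mm7, a span of 61 bases. It is shown because it is the sole measurement of this transcript. Exons and untranslated regions are not marked for the probes in the files.
Hif1a probe: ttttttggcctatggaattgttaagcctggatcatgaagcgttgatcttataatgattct

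Epas1, which encodes HIF-2 alpha, a subunit more restricted in its tissues, was near the limit of detection. Its brighter probe was well above background on 3 arrays in the anti-TIM3 channel and 0 in the IgG channel, and its dimmer probe on 4 and 0. The brighter probe comes from a cDNA clone and was assigned through its symbol, and the probes start 32751 bases apart. Whether they read the same transcript was not tested. The log2 ratios of the brighter probe were -0.09, 0.04, -0.06 and 0.02 (mean -0.02 ± 0.06; limma, adjusted p = 0.696) and those of the dimmer probe 0.01, 0.11, 0.17 and 0.03 (mean 0.08 ± 0.07; adjusted p = 0.148). Neither probe was far enough over the detection limit to give a bound on a fold. The deposited ratios of the dimmer probe ran from -0.22 to 1.1 over the 4 arrays, and its deposited intensities were 19, 15, 15 and 14 after anti-TIM3 and 18, 7, 9 and 17 after IgG, so differences of a few units moved the ratio.

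Among the hydroxylases, Egln1 encodes PHD2, the principal oxygen sensor of the pathway in most cells. Its brighter probe had log2 intensities of 11.31, 10.94, 10.84 and 10.81 in the anti-TIM3 channel, and 11.25, 10.69, 10.66 and 10.68 in the IgG channel. Every array was higher after anti-TIM3, by 0.06, 0.25, 0.18 and 0.13 on the log2 scale, so replicate 1 showed the smallest difference and replicate 2 the largest. The mean was 0.16 ± 0.08 (SD, n = 4; limma, adjusted p = 0.0193), and the level ranges of the channels overlapped.

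The dimmer Egln1 probe went the other way. It read 9.24, 8.55, 8.49 and 8.48 in the anti-TIM3 channel, and 9.36, 8.66, 8.62 and 8.56 in the IgG channel, giving ratios of -0.12, -0.11, -0.13 and -0.08. The mean of -0.11 ± 0.02 passed as lower (adjusted p = 0.0366), but stood at 0.05 with median centring only, against 0.15 for all probes. The brighter probe exceeded the dimmer by 0.18, 0.37, 0.31 and 0.21 on the 4 arrays (mean 0.27 ± 0.09), in 4 of 4 the same way. The choice of probe thus sets the sign for Egln1, and the mean over both probes was 0.02 (adjusted p = 0.589).

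The brighter Egln1 probe lies on chromosome 8 from 123496739 to 123496798 on the minus strand (mm7), and the listed span of the dimmer, from 123495970 to 123495982, holds 13 of its 60 bases. They start 769 bases apart, and both sequences are given because they disagree on the direction.
Egln1 brighter probe: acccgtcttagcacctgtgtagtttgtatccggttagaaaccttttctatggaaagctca
Egln1 dimmer probe: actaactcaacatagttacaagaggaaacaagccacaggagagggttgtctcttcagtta
Neither call held in every fit that left out a replicate. The brighter probe missed the threshold without replicate 2, 3 or 4 (adjusted p = 0.0863, 0.0592 and 0.0504), and the dimmer one without any 1 of the 4 (adjusted p from 0.0674 to 0.127).

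Egln3 encodes PHD3, a hydroxylase that is itself induced in hypoxia in many cell types. Its probe, from 52198570 to 52198629 on chromosome 12 (mm7), read 8.48, 8.02, 8.26 and 8.23 in the anti-TIM3 channel, and 8.53, 8.03, 8.27 and 8.14 in the IgG channel. The log2 ratio was above 0 on replicate 4 alone (0.09) and between -0.05 and -0.01 on the other 3 arrays. The mean was 0.01 ± 0.06 (limma, adjusted p = 0.926), and the 95% confidence interval ran between -0.08 and 0.09.

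**Figure D2:**
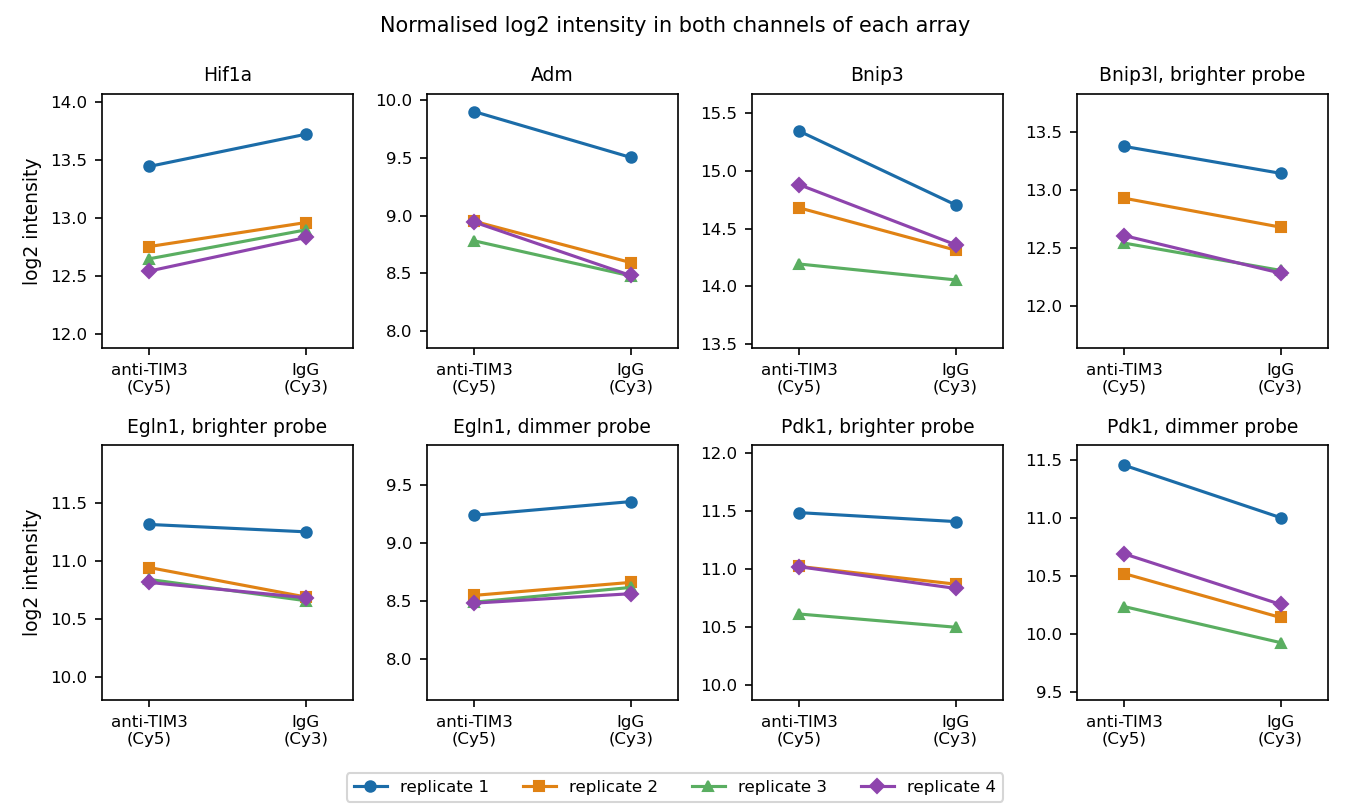
Normalised log2 intensity (vertical axis, the same span of units in each panel) of 8 member probes in the anti-TIM3 channel (left) and the IgG channel (right) of each array, with 1 line for each of the 4 replicates. Replicate 1 is the brightest in both channels of every panel. Lines go up to the right for Hif1a and the dimmer Egln1 probe and down to the right in the other 6 panels, while the dimmer Pdk1 probe falls more steeply (0.40) than the brighter (0.13).

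Adm was among the clearest members. It encodes adrenomedullin, a secreted vasodilator peptide and a widely used hypoxia marker. Its probe read 9.90, 8.95, 8.78 and 8.94 in the anti-TIM3 channel, and 9.5, 8.59, 8.48 and 8.48 in the IgG channel. All 4 arrays were higher after anti-TIM3, by 0.40, 0.36, 0.30 and 0.46 on the log2 scale, with overlap of the level ranges due to the bright replicate 1. The mean was 0.38 ± 0.07 (SD, n = 4; limma, adjusted p = 0.000569), a 1.3-fold level with a 95% confidence interval from 0.29 to 0.46 on the log2 scale. Of all tested probes, 99.3% had a lower ratio. The deposited intensities were 627, 362, 365 and 441 after anti-TIM3 and 430, 277, 298 and 311 after IgG, which give log2 ratios of 0.55, 0.39, 0.30 and 0.51 (mean 0.43 ± 0.11; adjusted p = 0.0170). All 4 arrays again lay above 0. Removal of the trends on intensity and base composition left 0.32 (adjusted p = 0.00198).

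Bnip3 and Bnip3l encode related outer mitochondrial membrane proteins that act as receptors for mitophagy. Bnip3 was the brightest member, with log2 intensities of 15.34, 14.68, 14.19 and 14.88 in the anti-TIM3 channel, and 14.70, 14.31, 14.06 and 14.36 in the IgG channel. The ratios were all above 0 but unequal, at 0.64, 0.37, 0.14 and 0.52, with replicate 3 lowest and replicate 1 highest. The mean was 0.41 ± 0.22 (SD, n = 4; limma, adjusted p = 0.00404), and 98.4% of tested probes had a smaller SD. The deposited log2 ratios had the same order of arrays, at 0.58, 0.34, 0.11 and 0.48 (mean 0.38 ± 0.20; adjusted p = 0.0403). The mean after loess ran from 0.34 without replicate 1 to 0.51 without replicate 3, and passed in each case. The probe, from 135295711 to 135295770 on the minus strand of chromosome 7 (mm7), also lists predicted transcripts among its accessions, so signal from a near copy of the gene is possible.

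Bnip3l was higher at both of its probes. The brighter read 13.38, 12.93, 12.54 and 12.61 in the anti-TIM3 channel, and 13.14, 12.68, 12.31 and 12.28 in the IgG channel. Its ratios were close together at 0.23, 0.25, 0.24 and 0.32 (mean 0.26 ± 0.04; limma, adjusted p = 0.00165), a 1.2-fold level. The deposited log2 ratios of this probe were 0.29, 0.30, 0.28 and 0.36 (mean 0.31 ± 0.03; adjusted p = 0.0154). The dimmer probe gave 0.23, 0.22, -0.04 and 0.25 (mean 0.17 ± 0.14; adjusted p = 0.0384), so replicate 3 stood apart there while it did not at the brighter probe. The dimmer probe kept its call without replicate 3 (0.24; adjusted p = 0.00564) and lost it without replicate 1, 2 or 4 (adjusted p = 0.130, 0.112 and 0.135). It did not pass in the deposited ratios (0.18, limma adjusted p = 0.102) or with trends removed (0.14, limma adjusted p = 0.0965). The difference between the probes, 0.09 ± 0.12, was smaller than its SD over the arrays.

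The Bnip3 and Bnip3l probes are shown together because these related genes moved the same way at different sizes. The listed span of the brighter Bnip3l probe, from 61846128 to 61846139 on the minus strand of chromosome 14, holds 12 of its 60 bases, and the dimmer probe lies from 61847439 to 61847498 (mm7).
Bnip3 probe: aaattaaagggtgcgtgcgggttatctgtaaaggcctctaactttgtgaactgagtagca
Bnip3l brighter probe: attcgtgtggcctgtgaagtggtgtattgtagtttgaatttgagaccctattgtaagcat
Bnip3l dimmer probe: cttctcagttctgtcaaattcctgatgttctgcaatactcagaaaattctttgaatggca

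Pdk1 encodes a pyruvate dehydrogenase kinase that limits the entry of pyruvate into the mitochondrial citric acid cycle. Its brighter probe read 11.49, 11.02, 10.61 and 11.02 in the anti-TIM3 channel, and 11.41, 10.87, 10.50 and 10.83 in the IgG channel, with ratios of 0.08, 0.15, 0.11 and 0.19. That mean, 0.13 ± 0.05 (limma, adjusted p = 0.0231), passed with all 4 arrays but not when replicate 2, 3 or 4 was left out (adjusted p = 0.0846, 0.0586 and 0.0928). Its deposited ratio did not pass either (0.11; adjusted p = 0.0831). The dimmer probe moved further. It read 11.46, 10.52, 10.23 and 10.69 in the anti-TIM3 channel, and 11.00, 10.14, 9.92 and 10.25 in the IgG channel. Its ratios of 0.45, 0.38, 0.31 and 0.44 averaged 0.40 ± 0.06 (adjusted p = 0.000453), a 1.32-fold level, and it kept its call with any replicate left out. Its deposited intensities, 2072, 1259, 1176 and 1699 after anti-TIM3 and 1450, 958, 950 and 1253 after IgG, gave 0.41 ± 0.09 on the log2 scale (adjusted p = 0.0154).

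The probes of Pdk1 therefore shared a direction but not a size. The brighter fell short of the dimmer on all 4 arrays, by a mean of -0.26 ± 0.08 on the log2 scale. The dimmer probe carries the accession of a cDNA clone and was assigned through its symbol, and it starts 2132 bases beyond the brighter on the plus strand of chromosome 2, from 71747473 to 71747532 against 71745341 to 71745400 (mm7). Both are given because the size reported for Pdk1 depends on which is read.
Pdk1 brighter probe: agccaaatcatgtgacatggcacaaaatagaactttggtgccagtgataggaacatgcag
Pdk1 dimmer probe: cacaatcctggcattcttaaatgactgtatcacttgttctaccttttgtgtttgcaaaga

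P4ha1 encodes the catalytic subunit of collagen prolyl 4-hydroxylase, which stabilises collagen and uses oxygen as the EGLN enzymes do. The brighter probe read 11.57, 11.02, 10.66 and 10.67 in the anti-TIM3 channel, and 11.36, 10.85, 10.53 and 10.54 in the IgG channel. Its ratios were 0.21, 0.18, 0.14 and 0.13 (mean 0.16 ± 0.04; limma, adjusted p = 0.00903), higher on each array, and it kept its call with any replicate left out. Its deposited log2 ratios, 0.23, 0.15, 0.10 and 0.11, were also all above 0 but did not pass (mean 0.15 ± 0.06; adjusted p = 0.0558). The dimmer probe had ratios of -0.13, -0.06, -0.02 and -0.01 (mean -0.05 ± 0.05; adjusted p = 0.272) and did not pass, whereas it passed as lower once trends were removed (-0.11; adjusted p = 0.0335). The brighter exceeded the dimmer on 4 of 4 arrays, by 0.22 ± 0.09, and the mean over both was 0.05 (adjusted p = 0.190).

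These probes lie close together on the plus strand of chromosome 10, with starts 284 bases apart, from 58889719 to 58889778 for the brighter and from 58889435 to 58889494 for the dimmer (mm7). Of their 60 bases, 27 in the brighter and 21 in the dimmer are G or C.
P4ha1 brighter probe: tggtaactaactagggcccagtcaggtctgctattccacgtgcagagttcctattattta
P4ha1 dimmer probe: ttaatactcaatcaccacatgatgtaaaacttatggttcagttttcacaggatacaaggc

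Ndrg1 encodes a stress-responsive protein that is often used as a hypoxia marker in tumours. Its probe, from 67013174 to 67013233 on the minus strand of chromosome 15 (mm7), read 12.74, 12.14, 12.08 and 12.21 in the anti-TIM3 channel, and 12.91, 12.09, 12.01 and 12.19 in the IgG channel. Replicate 1 lay below 0 at -0.16, and the other 3 arrays lay between 0.02 and 0.07. The mean was -0.01 ± 0.11 (limma, adjusted p = 0.941), and its 95% confidence interval ran from -0.11 to 0.10.

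Counted by probe, 8 of the 15 rose and 2 fell, beside 14.2% and 13.6% of all tested probes and 27.8% in all. The 8 were those of Adm and Bnip3, both of Bnip3l, both of Pdk1, and the brighter ones of Egln1 and P4ha1. Array by array, 6, 8, 7 and 9 of the 10 genes had a ratio above 0 on replicates 1 to 4, where 44.4%, 55.5%, 54.6% and 52.7% of all tested probes did. The median of the 10 genes was 0.07, 0.16, 0.13 and 0.13 on these arrays. Replicate 1 thus had the lowest median of the members, and also the lowest median of all probes (-0.02). The arrays also went in pairs. Over all tested probes the log2 ratios correlated at 0.71 between replicates 1 and 4 and 0.75 between 2 and 3 (Pearson). The other pairs lay between 0.52 and 0.60, and the cause was not tested.

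The very brightest probes on these arrays were nearly all higher in Cy5, whatever their gene. Of the 182 tested probes at or above 16 in mean log2 intensity, 89.6% rose and 0.549% fell, and from 15 to 16 the shares were 41.9% and 6.90%. Of the member probes, 0 lay above 15. In the intervals below 15, between 9.79% and 16.8% of probes rose and between 5.44% and 25.1% fell. With the trends of the ratio on intensity and base composition removed from each array, 6 of the 10 genes rose and 1 fell, the same counts as without that step, beside 13.1% and 13.2% of all tested probes, or 26.3%. Counted by probe, 7 of the 15 members rose and 3 fell there.

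**Figure D3:**
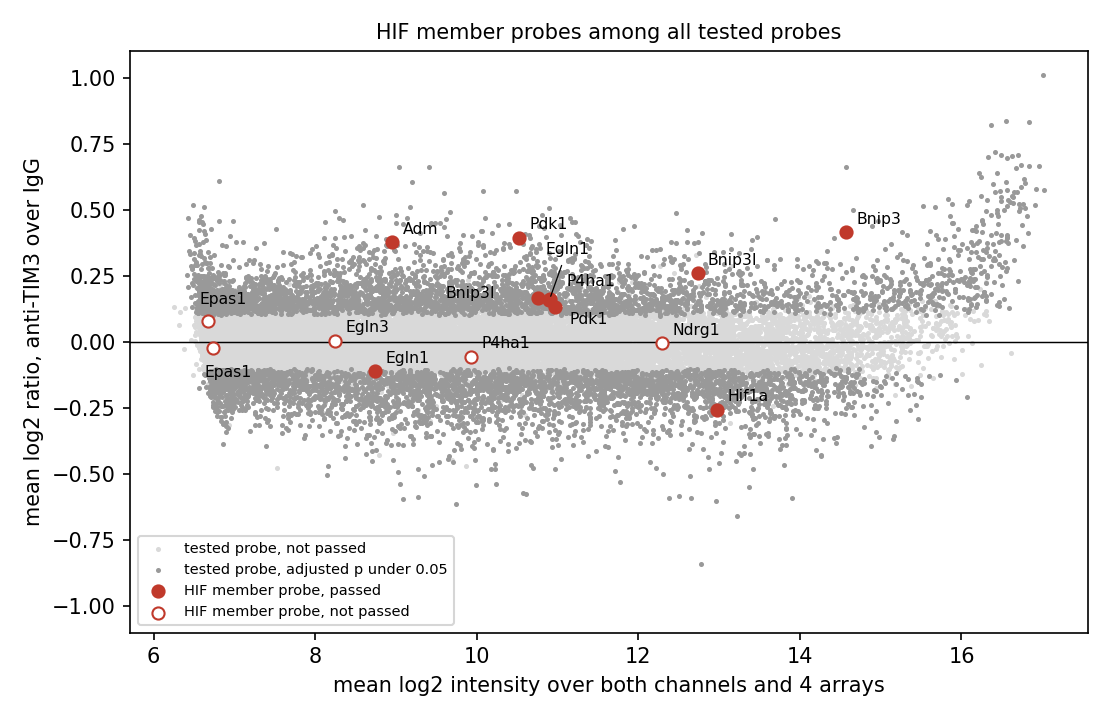
Mean log2 ratio of anti-TIM3 over IgG (vertical axis) against mean log2 intensity over both channels and the 4 arrays (horizontal axis) for 26543 tested probes, with the 15 member probes in red, filled where the adjusted p was under 0.05. Bnip3, at 14.57, is the brightest member and lies left of the climb above 15, where most probes are higher in Cy5.

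A stricter reading asked which members were called the same way in 7 fits, namely the one reported, the deposited ratios, the fit with trends removed, and each of the 4 fits that leave out a replicate. This summary was chosen after the values were seen. Adm, Bnip3 and Bnip3l rose and Hif1a fell in all 7, or 3 and 1 of 10 genes, while 4.87% of all genes rose and 4.5% fell in all 7, or 9.37%. By probe the dimmer Pdk1 probe joined them, giving 4 of 15 higher and 1 lower, beside 4.75% and 4.86% of all tested probes, or 9.61%. In the deposited ratios alone, 4 genes rose and 1 fell, since Pdk1 and P4ha1 did not pass there, beside 10.8% and 8.98% of tested probes, or 19.8%.

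Some fits called no member. With the channels fitted separately, without the replicate block that pairs the samples on an array, 0 of the 15 probes passed by limma, where 2.17% of all probes did (1.22% higher, 0.951% lower). Before adjustment, 5 member probes were higher and 2 lower with p under 0.05 in that fit. Without the pairing Adm had an adjusted p of 0.0730 and Hif1a of 0.0744, with the same log2 ratios. Against a minimum change of 1.2-fold, 0 member probes passed by limma, where 0.211% of all probes did (0.162% higher, 0.049% lower). Before adjustment, 3 member probes were higher and 0 lower. With median centring only, 0 of 26543 probes passed by limma (0%). Before adjustment, 971 of all probes were higher and 38 lower with p under 0.05, among them 3 member probes, all higher.

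**Figure D4:**
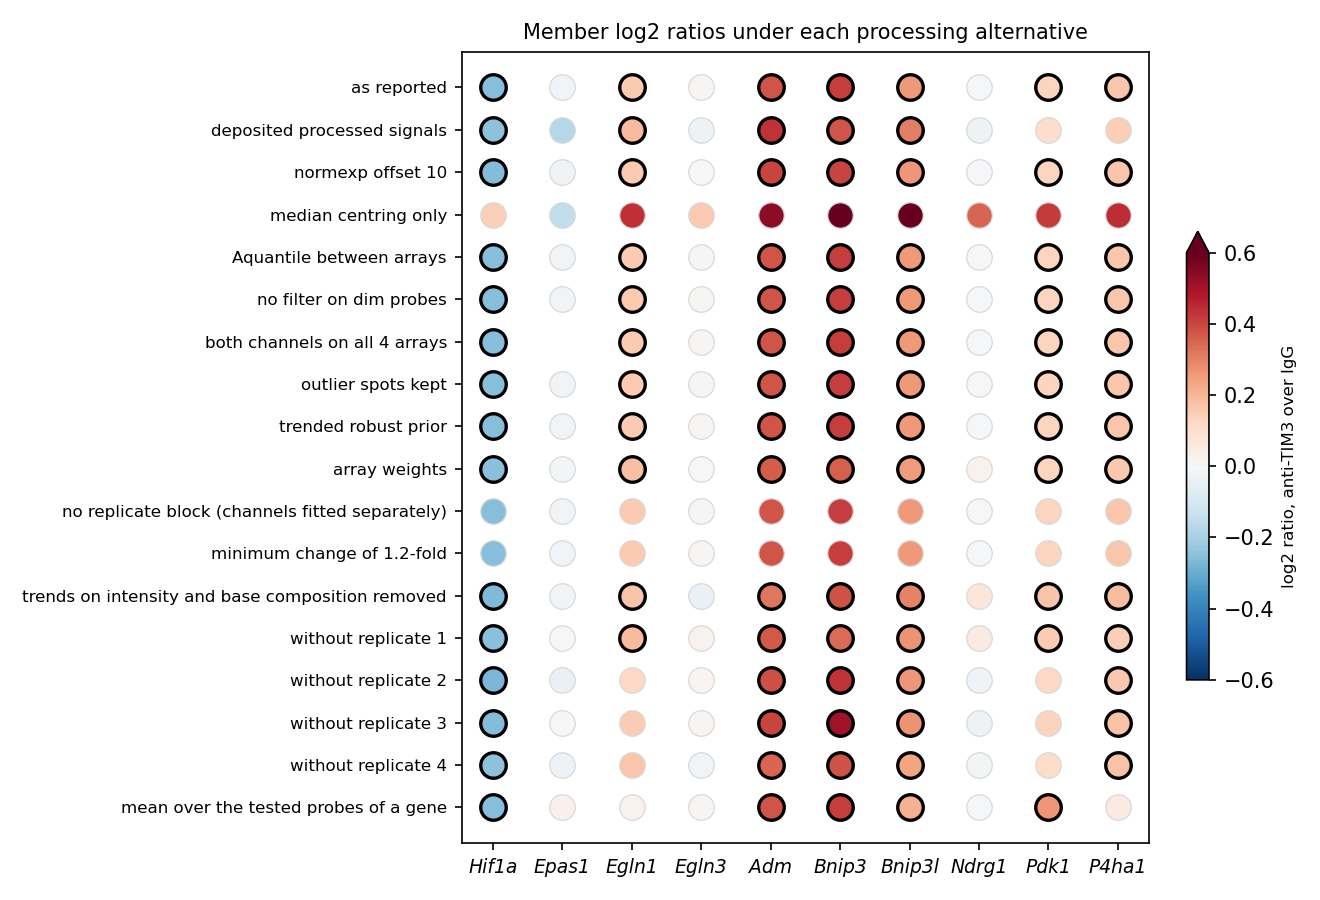
Log2 ratio of anti-TIM3 over IgG (colour) for the probe that represents each of the 10 genes (columns) under each processing setting (rows, the last with the mean over the probes of a gene). Black rings mark an adjusted p under 0.05, and a missing dot means that the probe was not tested. Adm, Bnip3, Bnip3l and Hif1a carry rings except with median centring only, separate channels or the 1.2-fold minimum, and Hif1a is below 0 except with median centring, where it is 0.14.

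The DNA near the starts of these genes was read from RefSeq promoters on GRCm38.p6, from 250 bases before to 50 after the annotated start, in the direction of transcription. They covered 7 of the 10 genes with 8 promoters, and Epas1, Bnip3l and Ndrg1 had no entry. The core letters of the hypoxia response element, ACGTG or GCGTG, were searched on both strands, so that the palindrome CACGTG counts once on each strand. At least 1 match stood in 7 of the 8 promoters and in all 7 genes, beside 43.8% of 32851 promoters of the same length. ACGTG stood in 5 of the 8 promoters and in 19.6% of all, and GCGTG in 5 of the 8 and 32.4% of all.

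The promoters of Adm, Bnip3 and Hif1a, which held their calls in all 7 fits, and of Pdk1, whose dimmer probe did, are shown with each match in capitals, on either strand. Adm has 2 matches on chr7:110627407-110627706 (plus strand), Bnip3 has 5 on chr7:138909457-138909756 (minus strand), Pdk1 has 2 at the first of its 2 starts on chr2:71872974-71873273 (plus strand), and Hif1a has 3 on chr12:73907617-73907916 (plus strand). The coordinates are those of GRCm38.p6 and cannot be set beside those of the probes.
Adm promoter: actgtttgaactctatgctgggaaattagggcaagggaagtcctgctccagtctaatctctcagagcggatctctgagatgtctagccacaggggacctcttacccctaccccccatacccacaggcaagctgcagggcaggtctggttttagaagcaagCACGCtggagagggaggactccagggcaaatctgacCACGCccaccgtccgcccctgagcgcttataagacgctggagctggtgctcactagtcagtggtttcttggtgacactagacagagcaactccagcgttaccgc
Bnip3 promoter: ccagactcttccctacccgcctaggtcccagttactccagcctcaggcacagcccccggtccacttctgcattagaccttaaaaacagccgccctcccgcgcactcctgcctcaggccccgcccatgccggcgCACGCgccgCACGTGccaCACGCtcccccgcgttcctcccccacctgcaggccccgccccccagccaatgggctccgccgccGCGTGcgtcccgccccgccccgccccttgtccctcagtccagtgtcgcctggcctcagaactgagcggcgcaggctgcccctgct
Pdk1 promoter: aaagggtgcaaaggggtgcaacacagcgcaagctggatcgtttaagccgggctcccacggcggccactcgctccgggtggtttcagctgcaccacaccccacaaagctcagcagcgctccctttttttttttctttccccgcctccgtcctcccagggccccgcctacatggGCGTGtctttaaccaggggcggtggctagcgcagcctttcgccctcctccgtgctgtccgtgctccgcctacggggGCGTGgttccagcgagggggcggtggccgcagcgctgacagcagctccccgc
Hif1a promoter: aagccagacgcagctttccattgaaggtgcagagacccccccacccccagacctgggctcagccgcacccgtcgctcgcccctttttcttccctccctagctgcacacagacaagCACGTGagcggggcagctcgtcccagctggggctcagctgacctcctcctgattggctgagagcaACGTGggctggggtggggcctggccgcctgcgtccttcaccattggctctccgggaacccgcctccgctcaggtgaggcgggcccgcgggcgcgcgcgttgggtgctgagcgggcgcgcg
Matches stood both in members that rose and in Hif1a, which fell, and Egln3, whose ratio was near 0, had 1. The promoter of the second Pdk1 start had 0, while Egln1 had 2 and P4ha1 had 3. A match of 5 letters is a description of the sequence and not a site of binding.

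Other genes of the pathway were taken from 3 lists, of regulators of HIF, of hypoxia targets outside glycolysis and of glycolytic hypoxia targets. Cited2 is in the list of regulators and in that of targets outside glycolysis, and is counted in both. Of the 20 regulators, 5 rose and 2 fell (25% and 10%, beside 14.8% and 12.8% of all genes), and the median ratio on the log2 scale was 0.04. With trends removed 4 rose and 4 fell, beside 13.1% and 13.2% of all tested probes, and the median was 0.01. In the deposited ratios 3 rose and 2 fell, beside 10.8% and 8.98% of tested probes. Rack1, a scaffold that promotes oxygen-independent loss of HIF-1 alpha, rose (0.64 ± 0.16; limma, adjusted p = 0.000382), but its other probe fell (-0.13). Hsp90aa1, a chaperone that protects HIF-1 alpha, rose by 0.36 ± 0.16 (adjusted p = 0.00335) and did not pass in the deposited ratios (0.13; adjusted p = 0.169). Both of these probes were above 16 in mean log2 intensity, where nearly all probes rose. Elob, a subunit of the von Hippel-Lindau ligase, rose (0.17 ± 0.09; adjusted p = 0.0157), as did Cited2, which competes with HIF for its coactivator (0.14 ± 0.04; adjusted p = 0.02). Hif1an, which encodes the asparagine hydroxylase that blocks coactivator binding, fell (-0.21 ± 0.07; adjusted p = 0.00547), also in the deposited ratios (-0.33; adjusted p = 0.0148), and 1 of its other 2 probes fell with it. Os9, an endoplasmic reticulum lectin reported to bind HIF-1 alpha, fell by 0.12 on the log2 scale (adjusted p = 0.0469) and stood at 0.26 with median centring only. The deposited ratio of Elob was 0.0025 (adjusted p = 0.97), its value with trends removed was 0.12 (adjusted p = 0.0598), its other probe was at 0.0028, and the probe lay at 15.2 in mean log2 intensity. Of the other 3 Cited2 probes, 1 rose and 1 fell (-0.18), the mean over its probes was 0.0071 (adjusted p = 0.894), and the deposited ratio did not pass (0.11; adjusted p = 0.0729). The deposited ratio of Os9 did not pass either (-0.06; adjusted p = 0.292). Its other tested probe was at 0.02, and the mean over its probes was -0.05 (limma, adjusted p = 0.294). Elob missed the threshold without replicate 1, 2 or 4, Cited2 without 2, 3 or 4, and Os9 without 1, 3 or 4 (adjusted p from 0.0529 to 0.127). The obligate partner Arnt and the ligase gene Vhl, given for their place in the pathway, had log2 ratios of -0.03 and 0.03 (adjusted p = 0.608 and 0.601).

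Of the 39 hypoxia targets outside glycolysis, 32 were tested, 12 rose and 5 fell (37.5% and 15.6%, beside 14.8% and 12.8% of all genes), and their median was 0.06 on the log2 scale. The untested 7 were Lox, Epo, Edn1, Cxcr4, Stc2, Nos2 and Zfp395. Insig2, a sterol-regulated membrane protein, rose (0.34 ± 0.04; adjusted p = 0.000574), and so did the mitochondrial protein gene Fam162a (0.33 ± 0.12; adjusted p = 0.00206) and the cyclin gene Ccng2 (0.32 ± 0.10; adjusted p = 0.00185). The Fam162a probe lay at 15.2 in mean log2 intensity, its deposited ratio did not pass (0.17; adjusted p = 0.0559), and its other probe, at 0.07, did not pass. Loxl2, a collagen cross-linking oxidase, passed at 0.31 ± 0.33 (adjusted p = 0.0450), with replicate 3 at -0.08, and missed the threshold without replicate 1, 2 or 4 (adjusted p = 0.172, 0.130 and 0.0731). Plod1 and Plod2, lysyl hydroxylases of collagen, fell (-0.37 ± 0.27 and -0.14 ± 0.05; adjusted p = 0.0136 and 0.0181), as did the ubiquitin ligase gene Wsb1 and the histone demethylase gene Kdm3a (both -0.16; adjusted p = 0.0124 and 0.0266). Plod2, Wsb1 and Kdm3a stood above 0 with median centring only (0.15, 0.13 and 0.25, beside 0.15 for all probes). The other Wsb1 probe, at -0.01, did not pass, nor did the other Kdm3a probes, at -0.08 and 0.11. The means over the probes of Wsb1 and Kdm3a were -0.09 and -0.04 and did not pass (limma, adjusted p = 0.0673 and 0.408). Plod1 missed the threshold without replicate 1 or 4 (adjusted p = 0.0647 and 0.0561), Plod2 without 2 or 3 (0.0734 and 0.0764), and Kdm3a without 1 or 3 (0.0662 and 0.0548). The brightest probe of Vegfa, the angiogenic growth factor, had a log2 ratio of 0.01 (adjusted p = 0.773). The other Vegfa probes ranged between 0.10 and 0.19, and 1 of them rose. The deposited ratios of Loxl2, Plod1 and Kdm3a did not pass (adjusted p = 0.113, 0.0801 and 0.0962). In the deposited ratios 7 of these targets rose and 3 fell, beside 10.8% and 8.98% of tested probes. With trends removed 12 rose and 5 fell, beside 13.1% and 13.2% of tested probes.

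Of the 20 glycolytic targets, 12 rose and 3 fell (60% and 15%, beside 14.8% and 12.8% of all genes), with a median of 0.14. Lactate dehydrogenase Ldha (0.72 ± 0.08; adjusted p = 6.52e-05), Aldoa (0.57 ± 0.11), Pgk1 (0.55 ± 0.04) and Gpi1 (0.54 ± 0.08) led, all above 16 in mean log2 intensity. With trends removed their ratios were 0.49, 0.37, 0.28 and 0.33. The other probes of Ldha, Aldoa and Pgk1 also rose, at 0.14, 1.01 and 0.57. That of Gpi1 stood at -0.07 and did not pass. The means over the probes of Ldha, Aldoa, Pgk1 and Gpi1 were 0.43, 0.79, 0.56 and 0.24. In all, 7 of the 20 genes lay above 15 and 13 did not, with a list median of 14.1 in mean log2 intensity. Of the genes that rose, Slc2a3, Gapdh, Tpi1 and Pfkfb4 did not pass in the deposited ratios (0.12, -0.05, -0.11 and 0.11). With trends removed Gapdh, Tpi1 and Pfkfb4 stood at 0.09, -0.01 and 0.09 and did not pass either, while Slc2a3 passed (0.15). The representing Gapdh probe is listed on chromosome 1 while the gene lies on chromosome 6, and the gene's other probe rose (0.43). Among those that fell were Eno1 (-0.55 ± 0.27; adjusted p = 0.00275), Pfkl (-0.17 ± 0.03; adjusted p = 0.00813) and Pfkfb3 (-0.15 ± 0.06; adjusted p = 0.0176), the last not without replicate 1 or 4 (adjusted p = 0.0524 and 0.0732). The deposited ratio of Pfkfb3 did not pass (-0.11; adjusted p = 0.0955). Its other probes, at -0.09 and 0.04, did not pass, and the mean over its probes was -0.07 (limma, adjusted p = 0.169). Pfkl and Pfkfb3 stood at 0.16 and 0.17 with median centring only, beside 0.15 for all probes. In the deposited ratios 8 of the 20 rose and 2 fell, beside 10.8% and 8.98% of tested probes. With trends removed 9 rose and 3 fell, with a median of 0.10, beside 13.1% and 13.2% of tested probes.

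**Figure D5:**
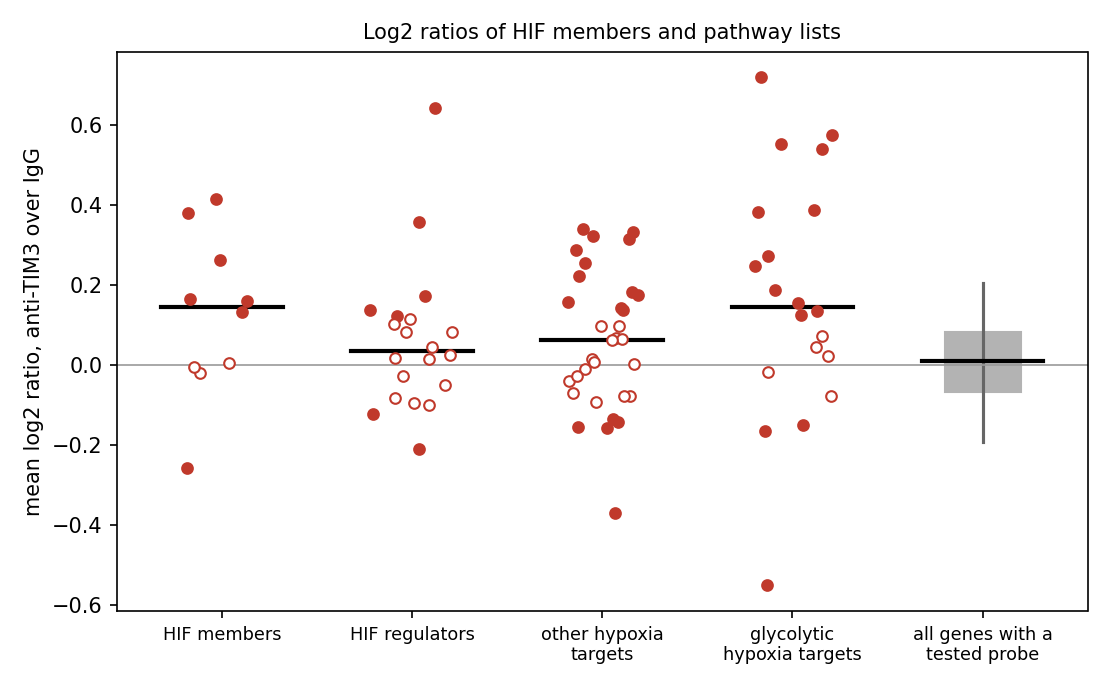
Mean log2 ratio of anti-TIM3 over IgG (vertical axis) of the representing probe for each gene in the 10 HIF members and in the lists of regulators, other targets and glycolytic targets, filled where the adjusted p was under 0.05, with black lines at the medians. The grey box and whiskers show the quartiles and the 5th and 95th percentiles of all 17788 genes. Medians were 0.15 for the members, 0.04 for regulators, 0.06 for other targets, 0.14 for glycolytic targets and 0.01 for all genes.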

How the data were processed

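The authors deposited scanner files with linear spot intensity for each channel, made with Agilent Feature Extraction 9.5.1.1 and annotation build mm7 per the file headers (version 9 per the submitters' processing notes). The value table that the authors deposited is on a log10 scale, Cy5 over Cy3. On each array 45018 of its 45018 spots equal the scanner ratio within 1e-06, and the median is 0. The ratios called deposited ratios in the text are the log2 form of this column, from signals that the authors' software background-subtracted and dye-normalised.

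From the mean signal and the median local background, normexp with an offset of 50 and loess within each array (control spots at weight 0) gave log2 ratios and log2 intensity per channel. Outlier spots were left out and spots of a probe averaged. A probe was tested if at least 3 of 4 arrays had it well above background in Cy5 or Cy3. The test was two-sided against 0, by lmFit and eBayes of limma (version 3.58.1, R version 4.3.3), with Benjamini-Hochberg adjustment over 26543 probes and a threshold of 0.05. Adjusted p-values are from this fit unless another is named. The 4 arrays limit the precision. The fit per probe and the removal of trends were tested on simulated ratios with known changes, and the other steps were not.

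Probes were named through RefSeq (GRCm38.p6): 22951 by accession, 131 by an accession in the probe's list, 6582 by a current symbol and 3073 by a synonym, while 8437 kept the file's name. The brightest tested probe represented a gene. All 10 members are named. From each of the 3 lists, up to 4 genes higher and 4 lower that passed are named, by size of the mean log2 ratio. Havcr2 is named as the gene of the receptor that the antibody was raised against. Arnt, Vhl, Vegfa, P4ha2, P4hb, Slc2a1, Slc2a3, Hk2, Gapdh, Tpi1, Pfkfb4 and the untested targets are named beyond this rule. The members and lists were chosen with earlier results of these data known.

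The pairing is that of 2 channels on 1 array, which hold the same passage, and it enters the fit through the ratio. In all, 17 alternatives were run. They left out each replicate, changed the background offset, normalisation, probe filter, variance prior or array weights, kept outlier spots, dropped the pairing, set a minimum change, removed trends on intensity and base composition, or averaged the probes of a gene.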

Additional observations from a re-analysis of the deposited data

Results flagged for a closer look

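The dimmer Bnip3l probe had a log2 ratio of -0.036 on replicate 3, while the other 3 arrays lay between 0.22 and 0.25. It was picked out because the gap to its nearest neighbour was 0.882 of the whole range, above Dixon's 95% critical value for 4 samples. Chance flags about 1 in 20 such groups of arrays, and 37 sets of ratios were examined, of which 1 was picked out. The brighter Bnip3l probe had 0.24 on the same array, within the range of its other arrays.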

How the results depend on the processing

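Of the 10 genes, the number called was 7, and it was 5 to 7 when each replicate was left out in turn. The ranges on leaving out a replicate were 6 to 8 for the member probes (10 with all arrays), 3 to 5 for the regulators (7), 10 to 13 for the other targets (17), 12 to 14 for the glycolytic targets (15) and 4222 to 6116 for all probes (7376), the lowest of all probes without replicate 4. With the deposited processed signals 10 of the other targets and 6 member probes passed. With no replicate block, the counts were 0 members, 0 member probes, 1 regulator, 0 other targets, 7 glycolytic targets and 575 of all probes (323 higher and 252 lower). With the 1.2-fold minimum they were 0, 0, 1, 0, 4 and 56 (43 higher and 13 lower). With median centring only, each of these counts was 0 by limma (before adjustment, 971 of all probes were higher and 38 lower with p under 0.05), and the values that had passed and turned sign were Hif1a (0.14), the dimmer Egln1 probe (0.049), Os9 (0.26), Wsb1 (0.13), Kdm3a (0.25), Plod2 (0.15), Pfkl (0.16) and Pfkfb3 (0.17), beside a median of 0.15 for all probes; the cause was not tested. Of values that had not passed, Ndrg1 (0.35), the dimmer P4ha1 probe (0.18) and the dimmer Epas1 probe (-0.06) also changed sign there. The dimmer P4ha1 probe passed with trends removed (-0.11). Of the other single values, 458 kept direction and side of the threshold, 141 kept direction only, and 14, of probes or genes that did not pass, changed sign, these 3 among them. Signal near background limits Epas1.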

Other observations

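Among the collagen-modifying genes of the target list, chosen here after their values were seen, the directions differed. P4ha2, the relative of P4ha1 that also encodes a catalytic subunit of prolyl 4-hydroxylase, had log2 ratios of 0.29, 0.21, 0.15 and 0.23 on replicates 1 to 4 (mean 0.22 ± 0.06; limma, adjusted p = 0.00368), and passed in the deposited ratios (0.21; adjusted p = 0.0329). P4hb, which encodes the partner subunit of that enzyme, had -0.20, 0.03, 0.05 and -0.18 and did not pass (adjusted p = 0.271). The lysyl hydroxylase gene Plod1 had -0.64, -0.13, -0.14 and -0.57, so that replicates 1 and 4 lay far below the others, and it did not pass in the deposited ratios (adjusted p = 0.0801). Plod2 had -0.12, -0.18, -0.19 and -0.09. Loxl2 had 0.45, 0.69, -0.08 and 0.20, and did not pass in the deposited ratios (adjusted p = 0.113).

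Slc2a1, which encodes the glucose transporter GLUT1, had log2 ratios of 0.35, 0.44, 0.39 and 0.36 (mean 0.39 ± 0.04; adjusted p = 0.000382) at a mean log2 intensity of 13.40, below the range where most probes rose. Hk2, a hexokinase, had 0.30, 0.32, 0.18 and 0.29 (mean 0.27 ± 0.06; adjusted p = 0.00181). Both passed in the deposited ratios (0.40 and 0.34; adjusted p = 0.0128 and 0.0154). These genes were likewise chosen after their values were seen.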
